A study of Mus musculus with 12 samples.

Results

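YTHDF1 CLIP peaks in the alpha-catenin genes and in the LRRTM synapse genes that lie inside them were examined in mouse striatum. The members are Ctnna3, Ctnna1 and Lrrtm1, chosen by symbol from the deposited peak tables with their peak counts already known, so the counts below are a description and carry no test. They are 3 of the 1247 genes listed for cocaine or saline. Ctnna3 was listed in both treatments and ranked 3 of 1049 genes in cocaine and 9 of 449 in saline. Ctnna1 and Lrrtm1 were listed in cocaine alone, at ranks 553 and 447. The hosts and nested partners of the members, Lrrtm3, Lrrtm2 and Ctnna2, were looked up as well, and of these Lrrtm3 was listed, in cocaine.

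Alpha-catenins link cadherins, the adhesion receptors of cell contacts, to the actin cytoskeleton through beta-catenin. Ctnna1 encodes the widely expressed alpha-E form, Ctnna2 the neuronal alpha-N form that acts at synapses, and Ctnna3 the alpha-T form known from heart and testis. LRRTM proteins are leucine-rich repeat proteins of the postsynaptic membrane. They bind presynaptic neurexins or glypicans and organise excitatory synapses. Each of Lrrtm1, Lrrtm2 and Lrrtm3 is known to lie within an intron of an alpha-catenin gene and to be transcribed from the opposite strand. YTHDF1 is a cytoplasmic reader of N6-methyladenosine, a methyl mark on RNA. In CLIP-seq, RNA crosslinked to a protein by ultraviolet light is precipitated with it, and a peak is a stretch of RNA where the precipitated reads pile up.

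All mice were wild-type C57BL/6J, and the tissue was striatum, a brain region that receives dopamine input. The 12 samples form 4 groups of 3: CLIP and input libraries after cocaine, and CLIP and input libraries after saline. The labels give no dose, schedule or age. Each value is the number of CLIP peaks that the authors assigned to a gene in 1 library, for 3 cocaine and 3 saline CLIP libraries. Input values (6 libraries) were not used here, and no count is corrected for how much of an RNA was present. Cocaine libraries held 24770 to 25528 listed peaks and saline libraries 3720 to 3944, and the number of reads behind them is unknown. Genes in a table had 1 peak or more in each of its libraries, with a mean above 6 in cocaine and above 1 in saline. A gene missing from a table failed at least 1 of these conditions, and its mean is not known. It was never set to 0. The labels name striatal neurons, but the protocol lysed whole tissue. Of 15 markers of striatal projection neurons, 2 were listed (Gnal and Gad1, 13.3%). For 5 other cell types, 7 of 40 markers were found (Cnp, Cx3cr1, P2ry12, Pecam1, Tek, Cux2 and Mef2c, 17.5%), and of all coding genes 3.34%. By type these were 0 of 8 for astrocytes and 1 of 8 for oligodendrocytes. Microglia, vascular cells and cortical excitatory neurons had 2 of 8 each. Gad1, Pecam1 and Cux2 were listed in saline alone, at means of 1.67 to 3. The part of other cells in the counts below was not tested.

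The first question is how host and nested gene are arranged at each locus. Ctnna3 lies on chromosome 10 from 63430098 to 65003667 (mm10), a span of 1573.57 kb. Lrrtm3 lies wholly within it, from 63928497 to 64090255, and covers 10.3% of its span. Ctnna2 lies on chromosome 6 from 76881637 to 77979815 and spans 1098.2 kb. Lrrtm1 lies within it from 77229210 to 77259915 and covers 2.80% of the host. The Ctnna1 locus, described with its values further on, has the shortest host of the 3, at 135.9 kb. The annotation table used here gives whole genes without exons.

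Host and nested gene start far apart and run against each other. In the RefSeq promoter windows of GRCm38.p6, the assembly of mm10, Ctnna3 is on the plus strand and Lrrtm3 on the minus strand, and their first windows start 660.2 kb apart. Ctnna2 is on the minus strand and Lrrtm1 on the plus strand, and their windows start 737.2 kb apart. The starts of the Ctnna3 and Lrrtm3 windows are the ends of the genes given above. That of Ctnna2 lies 0.148 kb inside its gene and that of Lrrtm1, its only window in the table, 13.3 kb inside, so the outermost start of Lrrtm1 was not examined. The 100 bases just before the start in each gene's first window are given to show the separate starts of host and nested RNA. They are at chr10:63429998-63430097 (plus strand) for Ctnna3, chr10:64090256-64090355 (minus) for Lrrtm3, chr6:77979668-77979767 (minus) for Ctnna2 and chr6:77242377-77242476 (plus) for Lrrtm1. Capitals mark CG pairs, which read the same on both strands.
Ctnna3: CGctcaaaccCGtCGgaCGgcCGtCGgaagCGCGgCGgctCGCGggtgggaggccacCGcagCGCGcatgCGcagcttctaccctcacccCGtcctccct
Lrrtm3: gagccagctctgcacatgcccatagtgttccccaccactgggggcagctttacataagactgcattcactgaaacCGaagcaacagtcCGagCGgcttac
Ctnna2: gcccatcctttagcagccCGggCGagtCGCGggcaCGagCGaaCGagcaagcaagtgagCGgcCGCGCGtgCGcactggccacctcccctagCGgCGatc
Lrrtm1: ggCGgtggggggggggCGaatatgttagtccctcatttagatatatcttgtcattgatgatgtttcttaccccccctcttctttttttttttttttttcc
The stretch before Ctnna3 held 16 CG pairs and was 74% G or C, and that before Ctnna2 held 14 and was 71%. The stretch before Lrrtm3 held 3 CG pairs at 55% and that before Lrrtm1 held 2 at 42%. Over all 32844 windows of this length the median was 3 CG pairs and 55% G or C, and 79.3% held at least 1 CG pair. Of all windows, 96.1% held fewer CG pairs than that of Ctnna3 and 92.8% fewer than that of Ctnna2. For Lrrtm3 and Lrrtm1 these shares were 48.7% and 38.0%. In these windows both hosts were thus richer in CG pairs than the nested genes. Ctnna3 has 3 windows in the table, and the other 2, inside the gene, held 2 and 0 CG pairs.

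The second question is which gene of each pair was listed, and the 3 loci gave 3 answers. At the Ctnna3 locus both host and nested gene were listed in cocaine. At the Ctnna1 locus the host was listed and Lrrtm2 was not. At the Ctnna2 locus the nested Lrrtm1 was listed and the host was not, under its symbol. Of the 1247 listed genes, 348 have no symbol and could not be searched by name. A few more carry more than 1 symbol and were not searched either. In saline, Ctnna3 was the only 1 of the 6 genes listed.

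**Figure D1:**
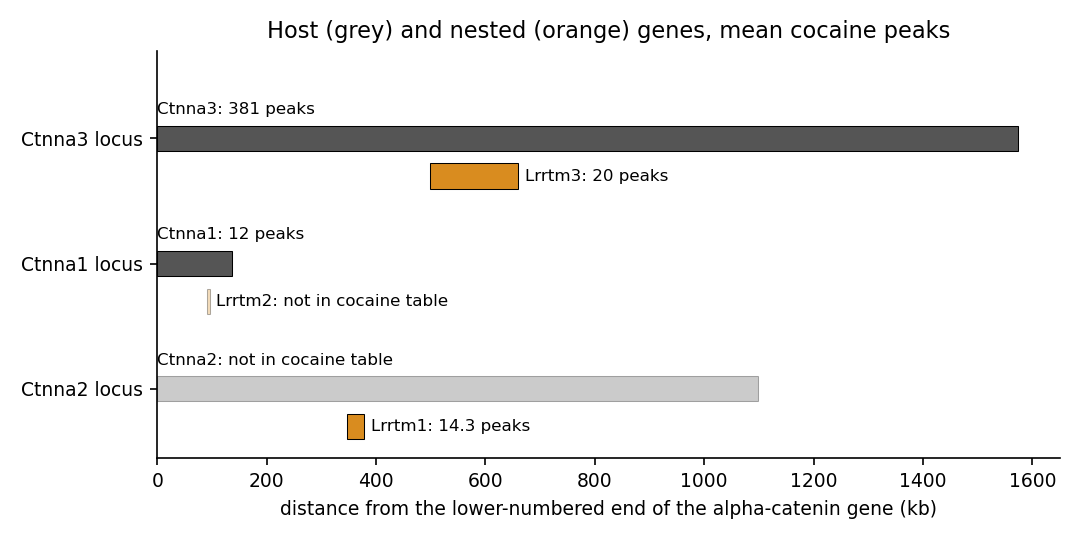
Maps of the 3 loci to scale, in kb from the lower-numbered end of the alpha-catenin gene, with hosts in grey and nested genes in orange; pale bars are genes not in the cocaine table. Ctnna3 carried 381 peaks per cocaine library against 20 for Lrrtm3 inside it, while Lrrtm1 was listed inside an unlisted Ctnna2.

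Ctnna3 had 392, 376 and 374 peaks in the cocaine libraries and 32, 37 and 39 in the saline libraries. All cocaine values lay above all saline values. Of the 251 genes in both tables, 77.7% had cocaine libraries wholly above saline and 0.398% wholly below, so nothing is read from this separation. The mean was 380.7 ± 9.87 in the cocaine group and 36.0 ± 3.61 under saline (± is the SD over 3 libraries here and below). Its neighbours in rank among genes with a symbol were Fgfr2, a growth factor receptor gene, above it in cocaine with 457.7 ± 33.6 peaks, and Pigk below it with 286.0 ± 53.5. In saline they were Syn3, a synapsin gene, with 39.3 ± 12 peaks and the non-coding 9630028H03Rik with 34.3 ± 8.02.

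The count of Ctnna3 was nearly the same in every library of a treatment. Its coefficient of variation was 2.59% in cocaine, where independent counts of this size would vary by 5.13%. Among the 31 genes above 100 peaks in cocaine the median was 13.0%, and 1 gene, the non-coding Tsix, varied less. In saline the coefficient was 10.02%, against 16.7% for independent counts. All 11 other saline genes within 25% of its level varied more, with a median of 23.5%. Peaks of 1 gene are not independent events, so these counting values are a yardstick only.

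Lrrtm3, the gene inside Ctnna3, had 18, 16 and 26 peaks in the cocaine libraries, a mean of 20 ± 5.29. Its highest value lay far below the lowest value of its host. Its peaks were 5.25% of those of Ctnna3, although it covers 10.3% of the host's span. Were the host's peaks spread evenly, 39.1 of them would fall within the span of Lrrtm3, which is not a value expected for Lrrtm3 itself. The tables hold no strand or position of a peak. Whether a peak in Lrrtm3 was also counted for Ctnna3 is not given in the sources used here.

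Lrrtm1, which encodes a postsynaptic protein that induces presynaptic contacts, had 20, 7 and 16 peaks in the cocaine libraries. The library in the middle column stood low. The mean was 14.3 ± 6.66, a coefficient of variation of 46.5%. Among the other 283 cocaine genes within 25% of this level the median was 37.8%, and 104 varied more. Its host Ctnna2 has no value under its symbol, and how a peak within both genes was counted is not stated.

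Ctnna1, the alpha-E-catenin gene, lies on chromosome 18 from 35118902 to 35254776. Lrrtm2 lies within it from 35209003 to 35215024 and covers 4.43% of its span. Ctnna1 had 18, 15 and 3 peaks in the cocaine libraries. Its last library held far fewer peaks than the others, although the library totals were alike. The mean was 12 ± 7.94, and without that library it was 16.5. The coefficient of variation, 66.1%, was above that of 273 of the other 331 cocaine genes within 25% of its level. The values of Lrrtm3 and Lrrtm1 overlapped, as did those of Lrrtm1 and Ctnna1, so the raw order of these genes is not settled by 3 libraries.

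**Figure D2:**
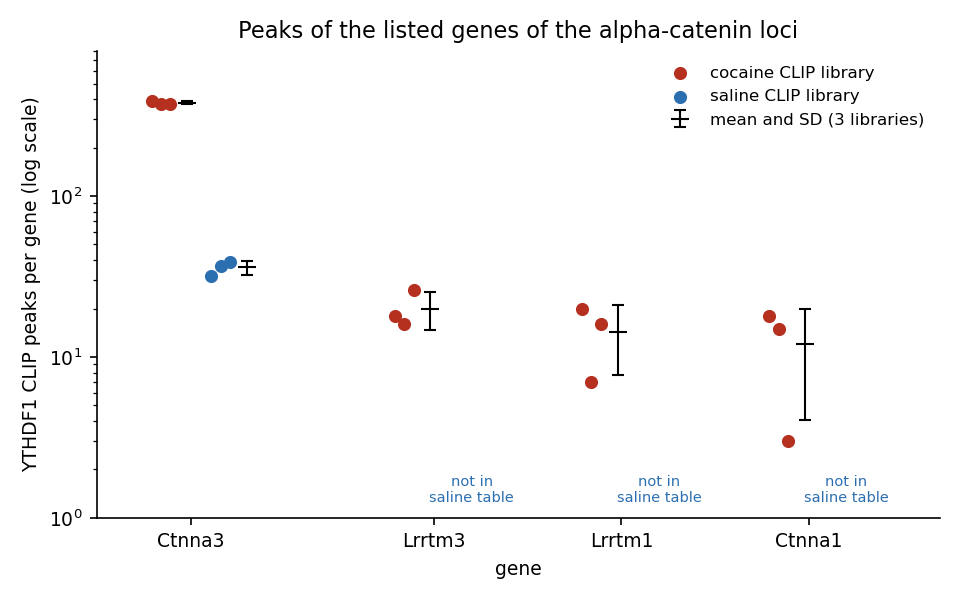
Peaks per gene in each CLIP library (points, log scale) with the mean and SD of 3 libraries, for the 4 listed genes of the loci. Ctnna3 sits at 374 to 392 peaks in cocaine and 32 to 39 in saline; Lrrtm3, Lrrtm1 and Ctnna1 lie between 3 and 26 in cocaine and are not in the saline table.

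That Lrrtm3, Lrrtm1 and Ctnna1 were missing from the saline table is common at their level. Of the other cocaine genes within 25% of the mean of Lrrtm3, 24.9% were listed in saline (57 of 229). The share was 18.4% near the level of Lrrtm1 (52 of 283) and 12.4% near that of Ctnna1 (41 of 331). A listing in cocaine alone is therefore no measure of a difference between treatments for these genes.

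The members differ widely in length, so peaks were next set against gene span. Span runs from end to end of a gene with its introns, so these values are not densities along the spliced RNA. Per 100 kb of span in cocaine, Lrrtm1 had 65.1, 22.8 and 52.1 peaks, a mean of 46.7 ± 21.7. Ctnna3 had 24.9, 23.9 and 23.8, a mean of 24.2 ± 0.627. Lrrtm3 had 11.1, 9.89 and 16.1, a mean of 12.4 ± 3.27. Ctnna1 had 13.2, 11.04 and 2.21, a mean of 8.83 ± 5.84. On this scale the nested Lrrtm1 came first, but its lowest library lay below all 3 of Ctnna3. Ctnna3 lay above Lrrtm3 and Ctnna1 in every library, and those 2 overlapped. In saline, Ctnna3 had 2.29 ± 0.229 peaks per 100 kb. The median of the 714 cocaine genes with a known span was 39.0 peaks per 100 kb, and Ctnna3 ranked 443 among them. The cutoff shapes this scale, because a short gene must be dense to hold more than 6 peaks.

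Against genes of its own size, Ctnna3 stood far apart. The annotation holds 59 coding genes with a span above 1 Mb, and 25 of them were listed in cocaine and 14 in saline. The other 24 in cocaine had 6.33 to 20 peaks, with a median of 10.3, and no library of any of them exceeded 25. Ctnna3 had 19.0 times the mean of the highest, Macrod2 and Kcnip4, with 20 peaks each. Its count was 36.8 times their median and exceeded their summed means of 257.7. Kcnip4 encodes a potassium channel-interacting protein. Cntnap2, a neurexin family gene, had 13.7 peaks and the dystrophin gene Dmd 11.7. In saline the other 13 had 1.67 to 8.33 peaks, and Ctnna3 had 4.32 times the highest, Il1rapl1. Per 100 kb in cocaine the other long genes had 0.393 to 1.76 peaks against 24.2 for Ctnna3. Ctnna2, also above 1 Mb, was in neither table under its symbol.

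**Figure D3:**
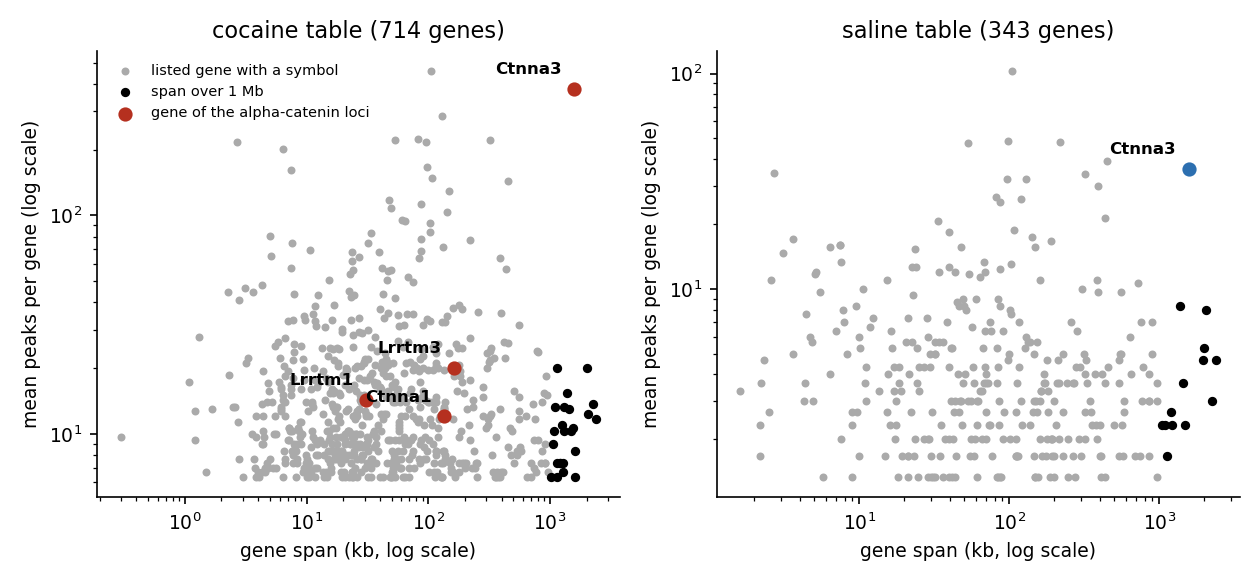
Mean peaks per gene against gene span (both log scales) for the 714 cocaine genes and 343 saline genes with a known span; coloured points are genes of the alpha-catenin loci and black points other genes above 1 Mb. Ctnna3 lies at 381 peaks in cocaine, above the other long genes at 6.33 to 20.

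Across all listed genes a longer span did not go with more peaks. Spearman's rho of span and mean peaks was 0.0020 over 714 cocaine genes and -0.11 over 343 saline genes, across genes that share the same libraries and cutoff. Median peaks were 12 for cocaine genes up to 10 kb, 12 from 10 to 100 kb, 12 from 100 to 1000 kb and 10.3 above. Ctnna3 thus combined the count of a leading gene with a span that 6 of the 714 cocaine genes exceeded.

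The arrangement of these loci was then set beside other nested genes. The annotation holds 967 pairs in which 1 coding gene lies wholly within another. In cocaine, 124 of them (12.8%) had a listed gene: both genes in 16 pairs, the host alone in 65 and the nested gene alone in 43. Each pattern of the alpha-catenin loci was thus found elsewhere. The 43 pairs hold 32 distinct nested genes, because clustered genes such as Pcdha10 lie within several others. Ctnna2 was the longest host of these pairs and the only 1 above 1 Mb. Lrrtm1 ranked 24 of the 43 by the peaks of the nested gene, whose median was 16.

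Among the 16 pairs with both genes listed, Ctnna3 had most peaks of any host, followed by Syn3, which holds Timp3 and had 144.3. The nested gene was denser per 100 kb than its host in 15 of the 16 pairs. Ctnna3 and Lrrtm3 were the exception, with the host 1.96 times as dense as the nested gene. This pair was singled out after the values were seen. The nested gene is the shorter of a pair and both must hold more than 6 peaks, so this scale favours the nested gene. The exception restates the high count of Ctnna3. The nested gene's peaks were 92.9% of the host's at the median of the 16 pairs, and 5.25% for Lrrtm3. By mean, the nested gene had more peaks than its host in 6 pairs, fewer in 9 and as many in 1. In those 6, not every peak of the nested gene can also have been counted for the host. For Ctnna3 and Lrrtm3 this was not tested. Of the other pairs, 2 also hold a leucine-rich repeat synapse gene. Lrrc4, which encodes the netrin-G ligand 2, had 44.7 ± 0.577 peaks inside Snd1 with 26. Flrt3, which encodes a ligand of latrophilins, had 24.7 ± 5.77 inside Macrod2 with 20 ± 6.24. The libraries of Flrt3 (18, 28 and 28) and Macrod2 (25, 13 and 22) overlapped, so their order is not settled. By mean, both nested genes had more peaks than their hosts, the reverse of Ctnna3 and Lrrtm3.

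**Figure D4:**
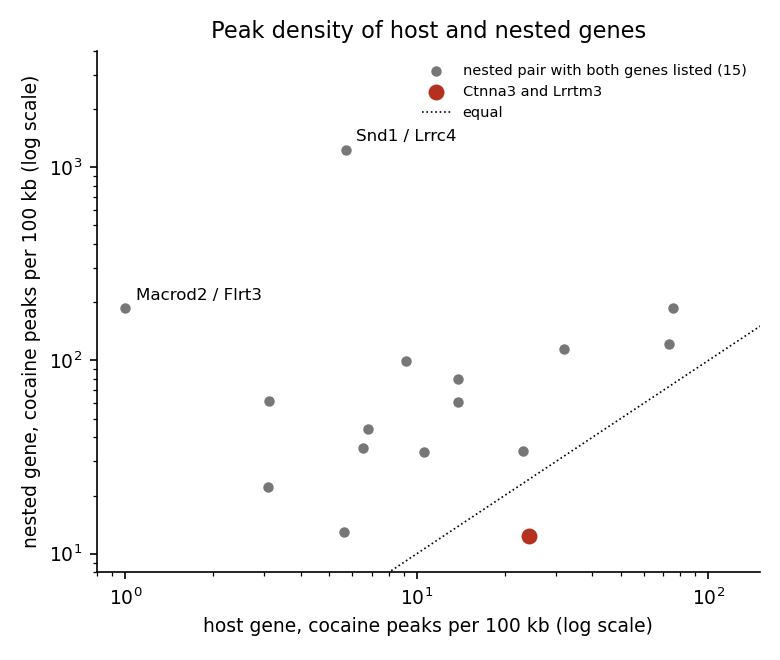
Cocaine peaks per 100 kb of the nested gene against the host gene (both log scales) in the 16 pairs with both genes listed; the dotted line marks equal density. Ctnna3 and Lrrtm3 lie below the line at 24.2 and 12.4, and the other 15 pairs lie above it.

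The last question is how Ctnna3 differed between cocaine and saline. Its mean count was 10.6 times as high in cocaine, and the lowest cocaine library held 9.59 times the highest saline library. The median over the 251 genes in both tables was 4.54 times (interquartile range 3.0 to 6.63), and 20 genes had a higher ratio. Among the 31 genes above 100 peaks in cocaine the median was 7.49, and 6 had a higher ratio. The other 9 genes above 1 Mb in both tables had ratios of 1.54 to 12, with a median of 3.55. Among them Kcnip4 reached 12 from a saline mean of 1.67. Since cocaine libraries held more listed peaks in all and the reads behind them are unknown, raw ratios cannot be read as binding. In tissue, fewer cells of a type and less bound RNA per cell cannot be told apart.

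As a share of the peaks in genes of both tables, Ctnna3 held 2.82, 2.73 and 2.69% in the cocaine libraries and 0.983, 1.16 and 1.15% in the saline libraries. The shares did not overlap. Over all 251 genes, 17.9% had shares wholly above and 16.7% wholly below. Since the member was chosen with its counts known, nothing is read from this separation. The mean share was 2.75 ± 0.0671% against 1.10 ± 0.101%, a ratio of 2.50. In edgeR's fit over 202 genes with TMM scaling, a correction for the make-up of each library, the log2 difference of Ctnna3 was 1.09 (SE 0.17), and 20 genes had a larger one. The median over all 202 genes was -0.02 and the interquartile range -0.71 to 0.49. Other scalings gave 0.69 to 1.31 for Ctnna3.

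**Figure D5:**
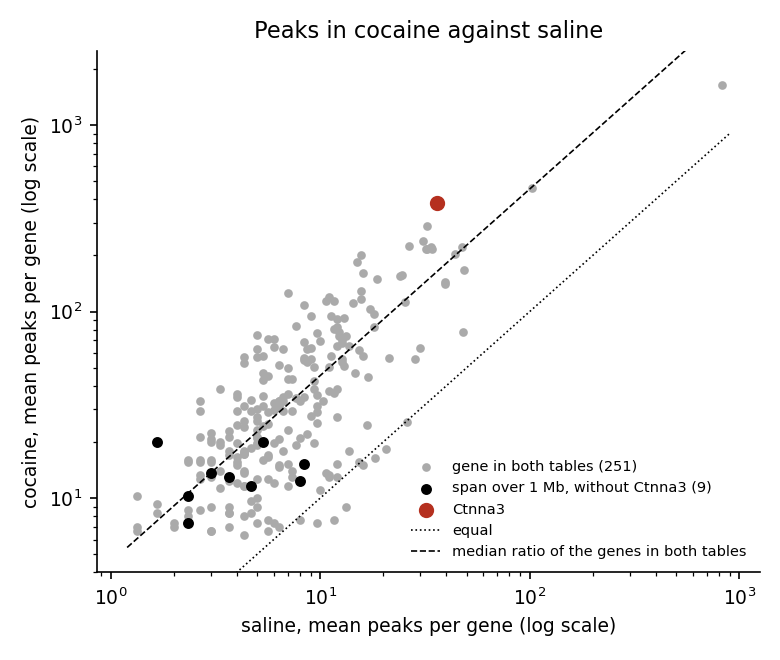
Mean peaks per gene in cocaine against saline (both log scales) for the 251 genes in both tables; the dotted line marks equal counts and the dashed line the median ratio of 4.54. Ctnna3, at 381 and 36 peaks, lies above the dashed line; the other 9 genes above 1 Mb have 1.67 to 8.33 saline peaks.

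Other genes of cadherin adhesion were looked up next. Of 42 genes of catenins, cadherins and their partners, 4 were listed in cocaine and 2 of these also in saline. That is 9.52% in either table, with the members among them, against 3.34% of all coding genes (730 of 21883). Beside Ctnna3 and Ctnna1 they were Vcl and Cdh23. Vcl encodes vinculin, an actin-binding protein that alpha-catenin recruits under tension, and had 13, 8 and 14 peaks in cocaine. These values lay within the range of Ctnna1. Cdh23, a cadherin gene known from hair cells, had 41, 16 and 50 peaks in cocaine against 12, 11 and 6 in saline. Its ratio of 3.69 was below the median of all shared genes, and that of Ctnna3 above. Ctnnb1, which encodes beta-catenin, and Cdh2, which encodes N-cadherin, were in neither table under their symbols.

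Of 26 LRRTM and other leucine-rich repeat synapse genes, 6 were listed in cocaine and 1 in saline. Lrrc4 was in both, with 44, 45 and 45 peaks in cocaine against 16, 17 and 18 in saline. Its libraries differed little within a treatment, as those of Ctnna3 did, and its ratio was 2.63. Lrrtm1, Lrrtm3, Flrt3, Lrrc4c and Lingo2 were in cocaine alone. Lrrc4c had 10.3 ± 4.93 peaks and Lingo2 11 ± 1, and both span above 1 Mb. Lrrtm4, the fourth LRRTM gene, was in neither table under its symbol. The rate of 23.1% over this list is given beside the 3.34% of all coding genes as a description. Lrrtm1 and Lrrtm3, chosen or looked up for their loci, are among the 6. The cell type markers above reached 13.3% and 17.5%, so a rate above 3.34% is not particular to the lists looked up here. Coding genes above 1 Mb, the class of Lrrc4c and Lingo2, were also listed more often, at 25 of 59 in cocaine.

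Of 31 genes of LRRTM partners and synaptic adhesion, 4 were listed in cocaine and 5 in saline, 6 in all (19.4%, against 3.34% of all coding genes). Nrxn3, a neurexin gene, had 3, 12 and 4 peaks in cocaine, a mean of 6.33 at the lower edge of that table. Gpc5, a glypican gene above 1 Mb, had 12, 15 and 12 peaks in cocaine against 1, 3 and 7 in saline. Cask, a scaffold gene of neurexin complexes, had 11, 13 and 13 peaks in cocaine against 5, 5 and 1 in saline. Il1rapl1, which encodes a postsynaptic adhesion protein, had 15.3 ± 6.51 and 8.33 ± 3.21. The AMPA receptor gene Gria1 (2.67 ± 0.577) and the scaffold gene Dlg2 (4.67 ± 1.15) were in saline alone. Of these 6 genes, Nrxn3, Gpc5, Dlg2 and Il1rapl1 span above 1 Mb, a class listed more often than coding genes as a whole. At a mean above 6 peaks, 1 of the 5 saline genes was left, and the share in either table was 12.9% against 2.60%.

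The genes most like each member were found by the root mean square difference of log2 peaks between libraries. Over 6 libraries and 167 other genes with a symbol in both tables, those nearest to Ctnna3 were Pigk (0.38), Sorbs2os (0.62), 9630028H03Rik (0.62), Kcnq1 (0.63) and Ube3a (0.66). None of them spans above 1 Mb, and Sorbs2os and 9630028H03Rik are non-coding. Over the 3 cocaine libraries and 716 other genes, Lrrtm1 was nearest to Xrra1 (0.04), with 19, 7 and 16 peaks, then Magi3 (0.15), Herc3 (0.23), Il1rapl1 (0.23) and Tubgcp4 (0.24). Ctnna1 was nearest to the non-coding Gm5577 (0.14), with 21, 16 and 3 peaks, then Myo1d (0.15), Xpnpep1 (0.29), Slc6a20b (0.37) and Tes (0.41). The 5 genes nearest to Ctnna1 held 3 or 4 peaks in the last column, as the measure selects for. At such low counts likeness over 3 libraries describes the level and the pattern over the columns, and no more.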

How the data were processed

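The deposited tables give counts of CLIP peaks for each gene in 3 library columns per treatment, per the file headers; the authors' mean column, kept here as a score, was used only to check them. A table was given to a treatment by the letter c or s in its name, as in the library labels, and its columns carry no replicate number. Cutadapt, STAR and mm10 are named in the submitters' processing notes, without versions. The table names point to CLIPper. For its settings, the use of inputs and the rule from peak to gene, the answer is not given in the sources used here. Repeated lines of a gene were counted once. Spans come from RefSeq GRCm38.p6 by symbol (714 of 717 cocaine and 343 of 345 saline genes matched). Of the 6 genes at the loci, 4 had a promoter window.

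Differences in share were fitted with edgeR 4.0.16 (R 4.3.3; filterByExpr, TMM, quasi-likelihood) over the genes in both tables, and the SE is the difference over the root of F. The fit was also run on simulated data with known changes. These did not mimic the choice of genes by unlike cutoffs for cocaine and saline, so that run is no check of its effect. DESeq2 1.42.0, Python 3.11.15, pandas 2.3.3 and NumPy 2.4.6 were also used. No p-value is given, since the members and lists were chosen with earlier results of these data known. Whether each library is a separate animal is unstated in the labels, and the spread between libraries may be technical. Named were the members, their partners at the loci, listed genes of the lists, the 5 nearest genes, rank neighbours and listed genes above 1 Mb.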

Additional observations from a re-analysis of the deposited data

How the results depend on the processing

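The log2 difference in share of Ctnna3 stayed above 0 under all 11 alternatives that were run. It was 1.31 without TMM factors, 1.24 with DESeq2 and 0.69 with all listed peaks of a table as the library total. These scalings move all genes: the median of all fitted genes was 0.19 without TMM factors and -0.47 with all listed peaks, and Ctnna3 lay 1.12 and 1.16 above it. Leaving out 1 cocaine library at a time gave 0.91 to 0.95, over 103 to 108 fitted genes. Leaving out 1 saline library at a time gave 1.08 to 1.23, over 240 to 241. The main fit held 202 genes, so the effect of a library and that of the gene set are mixed here. Pairs that overlap by at least 1 base, in place of nested pairs, gave 30 with both genes listed, 177 with the longer gene alone and 117 with the shorter alone, because more pairs (2667) were counted. At a mean above 6 peaks, 1 saline gene of the partner list was left. Without 1 library at a time, Ctnna3 had 375 to 384 peaks in cocaine and 34.5 to 38 in saline, Ctnna1 9 to 16.5 and Lrrtm1 11.5 to 18. No paired analysis was possible because the columns carry no replicate number. Depth is known only as peaks.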
